A study of Rattus norvegicus with 11 samples.

Results

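The genes followed here are the carriers that recover amino acids from the filtrate in the proximal tubule of the rat kidney. They were chosen by name, as the non-control probes of the array whose RefSeq accession or gene name belongs to a fixed list. The list holds 10 genes of the 15168 named genes with a probe, 7 for uptake across the apical membrane (Slc6a19, Slc6a18, Slc6a20, Slc3a1, Slc7a9, Slc1a1 and Slc36a2) and 3 for exit across the basolateral membrane (Slc3a2, Slc7a7 and Slc7a8). They are read by 11 probes, 1 per gene except for Slc6a18, which has 2. Of these probes, 10 lay well above background on every array, and the probe of Slc36a2 did so only on the 3 Control+RYGB arrays.

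RNA of whole renal cortex from SD (Sprague Dawley) rats was labelled with 1 dye and hybridised to Agilent oligonucleotide arrays, 1 array per sample. The 2 DM+RYGB samples came from rats with type 1 diabetes induced by streptozotocin (STZ), which kills pancreatic beta cells, that had Roux-en-Y gastric bypass (RYGB), in which a small stomach pouch is joined to the jejunum so that the duodenum is bypassed. The 3 DM+Sham samples came from diabetic rats after sham surgery, the 3 Control+RYGB samples from control rats after bypass, and the 3 Control+Sham samples from control rats after sham surgery. Surgery of either kind was done 4 weeks after the start of diabetes, and tissue was taken 4 weeks after surgery, so every group carries an operation.

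Free amino acids are filtered at the glomerulus and almost all are taken back by proximal tubule cells. At the brush border, sodium-coupled carriers take up neutral amino acids and an exchanger takes up cystine and cationic amino acids in return for neutral ones. At the basolateral side, exchangers and facilitated carriers let the amino acids out towards the blood. Several of the carriers work as pairs of a transporting light chain and a heavy chain that brings it to the membrane, and loss of the human genes gives inherited aminoacidurias such as cystinuria, Hartnup disorder and lysinuric protein intolerance.

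Levels below are log2 processed signals relative to the 75th percentile of the same array, so a difference of 1 between groups is a doubling for 1 probe, and levels of different probes cannot be set against each other. Between 77.8% and 93.5% of the 30367 probes lay well above background on each array, and none was saturated. The pairs DM+Sham 2 and 3 and Control+RYGB 2 and 3 each lay within the noise of repeated spots, so each pair was taken as 1 sample, for 9 samples in all. The labels do not say that samples of a group are separate animals, so p-values measure only the spread between these samples, which may be technical. DM+RYGB 2 stood apart in its muscle transcripts: the summed signal of 10 heart and skeletal muscle markers was 352 times the array's 75th percentile there, against 1.06 times in DM+RYGB 1 and 0.441 to 0.866 times on the arrays of the other groups. The arrays were scanned on 5 days, and all Control+RYGB arrays held a slide position that no other array had, so group and position cannot be told apart for them.

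Among the apical carriers, the sodium-coupled carriers of neutral amino acids were lowest after bypass in diabetic rats. Slc6a19, the main brush border carrier of neutral amino acids and the Hartnup disorder gene, lay at -2.62 and -3.32 on the DM+RYGB arrays, at -0.98, -1.03 and -1.06 on the DM+Sham arrays, at 0.10, -0.02 and -0.03 on the Control+RYGB arrays and at -0.04, 0.04 and -0.07 on the Control+Sham arrays. Its groups fell into 3 steps, with DM+RYGB below DM+Sham and DM+Sham below the 2 control groups, whose arrays overlapped. Slc6a18, a carrier of glycine and other neutral amino acids whose rodent form is active in the late proximal tubule, lay at -0.62 and -1.33 in DM+RYGB by the probe A_43_P11843, against 1.04, 1.06 and 1.08 in DM+Sham, 0.72, 0.67 and 0.67 in Control+RYGB and 0.88, 0.96 and 0.80 in Control+Sham. Its other probe, A_64_P128852, lay at 2.22 and 1.61 in DM+RYGB, at 3.11, 3.15 and 3.13 in DM+Sham, at 2.87, 2.76 and 2.80 in Control+RYGB and at 3.02, 3.03 and 2.84 in Control+Sham. By both probes DM+Sham was the highest group and DM+RYGB the lowest, with no overlap of these 2 groups with any other.

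Slc6a20, a carrier of proline and related imino acids, gave another order of groups. Its levels were -2.14 and -2.77 in DM+RYGB, -1.57, -1.42 and -1.40 in DM+Sham, -1.48, -1.58 and -1.58 in Control+RYGB and -2.28, -2.03 and -2.30 in Control+Sham. DM+RYGB overlapped with Control+Sham at the low end, and DM+Sham overlapped with Control+RYGB at the high end. The probe carries the accession that RefSeq now calls Slc6a20a, and because rats also have the close paralog Slc6a20b, signal of the 2 copies may not be separated.

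The cystine exchanger of the brush border is made of the light chain Slc7a9 and the heavy chain Slc3a1, the genes mutated in human cystinuria, and its chains differed in pattern. Slc7a9 lay at 1.91 and 1.38 in DM+RYGB, 3.19, 3.36 and 3.36 in DM+Sham, 3.79, 3.73 and 3.78 in Control+RYGB and 3.87, 4.11 and 3.74 in Control+Sham. Slc3a1 lay at 5.92 and 5.23 in DM+RYGB, 5.04, 4.39 and 4.40 in DM+Sham, 6.07, 5.56 and 5.66 in Control+RYGB and 4.70, 4.79 and 4.26 in Control+Sham. The light chain was lowest in DM+RYGB, whereas the heavy chain was higher on every array of a bypass group than on any array of a sham group. Slc3a1 also had the widest spread in DM+Sham among probes above background, with a standard deviation of 0.46 over the 2 samples, against 0.02 to 0.12 for the rest.

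Slc1a1, the carrier of glutamate and aspartate, lay at 0.11 and -0.36 in DM+RYGB, 0.76, 0.68 and 0.70 in DM+Sham, 1.08, 1.02 and 0.96 in Control+RYGB and 0.90, 1.19 and 0.90 in Control+Sham. DM+RYGB was below all other arrays, DM+Sham came next, and the control groups overlapped. Slc36a2, a proton-coupled carrier of glycine and proline, was not well above background on any DM+RYGB, DM+Sham or Control+Sham array, where its processed signal was at most 10.5 units. On the scale of these levels, Control+RYGB (-7.10, -6.86 and -7.14) lay at least 2.46-fold (1.30 in log2) above Control+Sham. For this bound the dim arrays were set to the lowest signal that counted as measured. The bound did not hold under other processing, where the fitted log2 change was 0.92 with quantile scaling and -0.18 with normexp background correction. The fits used the values below background as they were. Their limma adjusted p was 0.0160 on the scale of these levels and 0.138 with quantile scaling, so Slc36a2 was not called. Slc36a2 passed the filter on dim probes only through the group where it was high, so neither bound nor p can decide whether it changed. No fold is given between groups that are both below background.

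The promoter of Slc3a1 is shown because it alone among the 10 promoters found for 9 of these genes held the searched motif of HNF4, a nuclear receptor of liver and kidney whose transcript Hnf4a was also measured. The sequence is from RefSeq on build GRCr8 and runs 5′ to 3′ from 250 bases before to 50 bases after the start of the gene. Capitals mark the match.
Slc3a1, chr6:15394700-15394999, minus strand: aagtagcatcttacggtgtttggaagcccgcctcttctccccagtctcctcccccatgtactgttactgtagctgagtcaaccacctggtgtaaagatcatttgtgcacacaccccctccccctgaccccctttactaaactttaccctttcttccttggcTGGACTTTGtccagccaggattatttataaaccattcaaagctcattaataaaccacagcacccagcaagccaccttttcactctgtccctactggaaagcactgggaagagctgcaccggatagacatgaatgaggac
The motif searched on both strands was CAAAGTCCA. It reads TGGACTTTG in Slc3a1, its first base 89 bases before the start, and occurs in 0.391% of all 33469 promoters of that length. A match is a description of letters only. Elsewhere among the members, Slc6a19 and Slc6a18 are neighbours on chromosome 1 with no other protein-coding gene between them.

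On the basolateral side the 2 light chains were lowest in DM+RYGB. Slc7a7, the light chain that lets cationic amino acids out and is mutated in human lysinuric protein intolerance, lay at -3.45 and -4.04 in DM+RYGB, -1.45, -1.49 and -1.50 in DM+Sham, 0.05, 0.01 and 0.01 in Control+RYGB and -0.74, -0.79 and -0.77 in Control+Sham. All 4 groups were apart, in the order DM+RYGB, DM+Sham, Control+Sham and Control+RYGB from low to high. Slc7a8, the light chain of an exchanger of neutral amino acids, lay at 1.27 and 0.84 in DM+RYGB, 3.25, 3.31 and 3.31 in DM+Sham, 4.11, 4.05 and 4.13 in Control+RYGB and 3.50, 3.52 and 3.43 in Control+Sham, in the same order without overlap. Slc3a2, the heavy chain that both light chains pair with, lay at 2.13 and 1.76 in DM+RYGB, 1.95, 2.05 and 2.04 in DM+Sham, 2.64, 2.57 and 2.66 in Control+RYGB and 2.49, 2.49 and 2.41 in Control+Sham. Its 2 diabetic groups overlapped with each other and lay below both control groups.

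**Figure D1:**
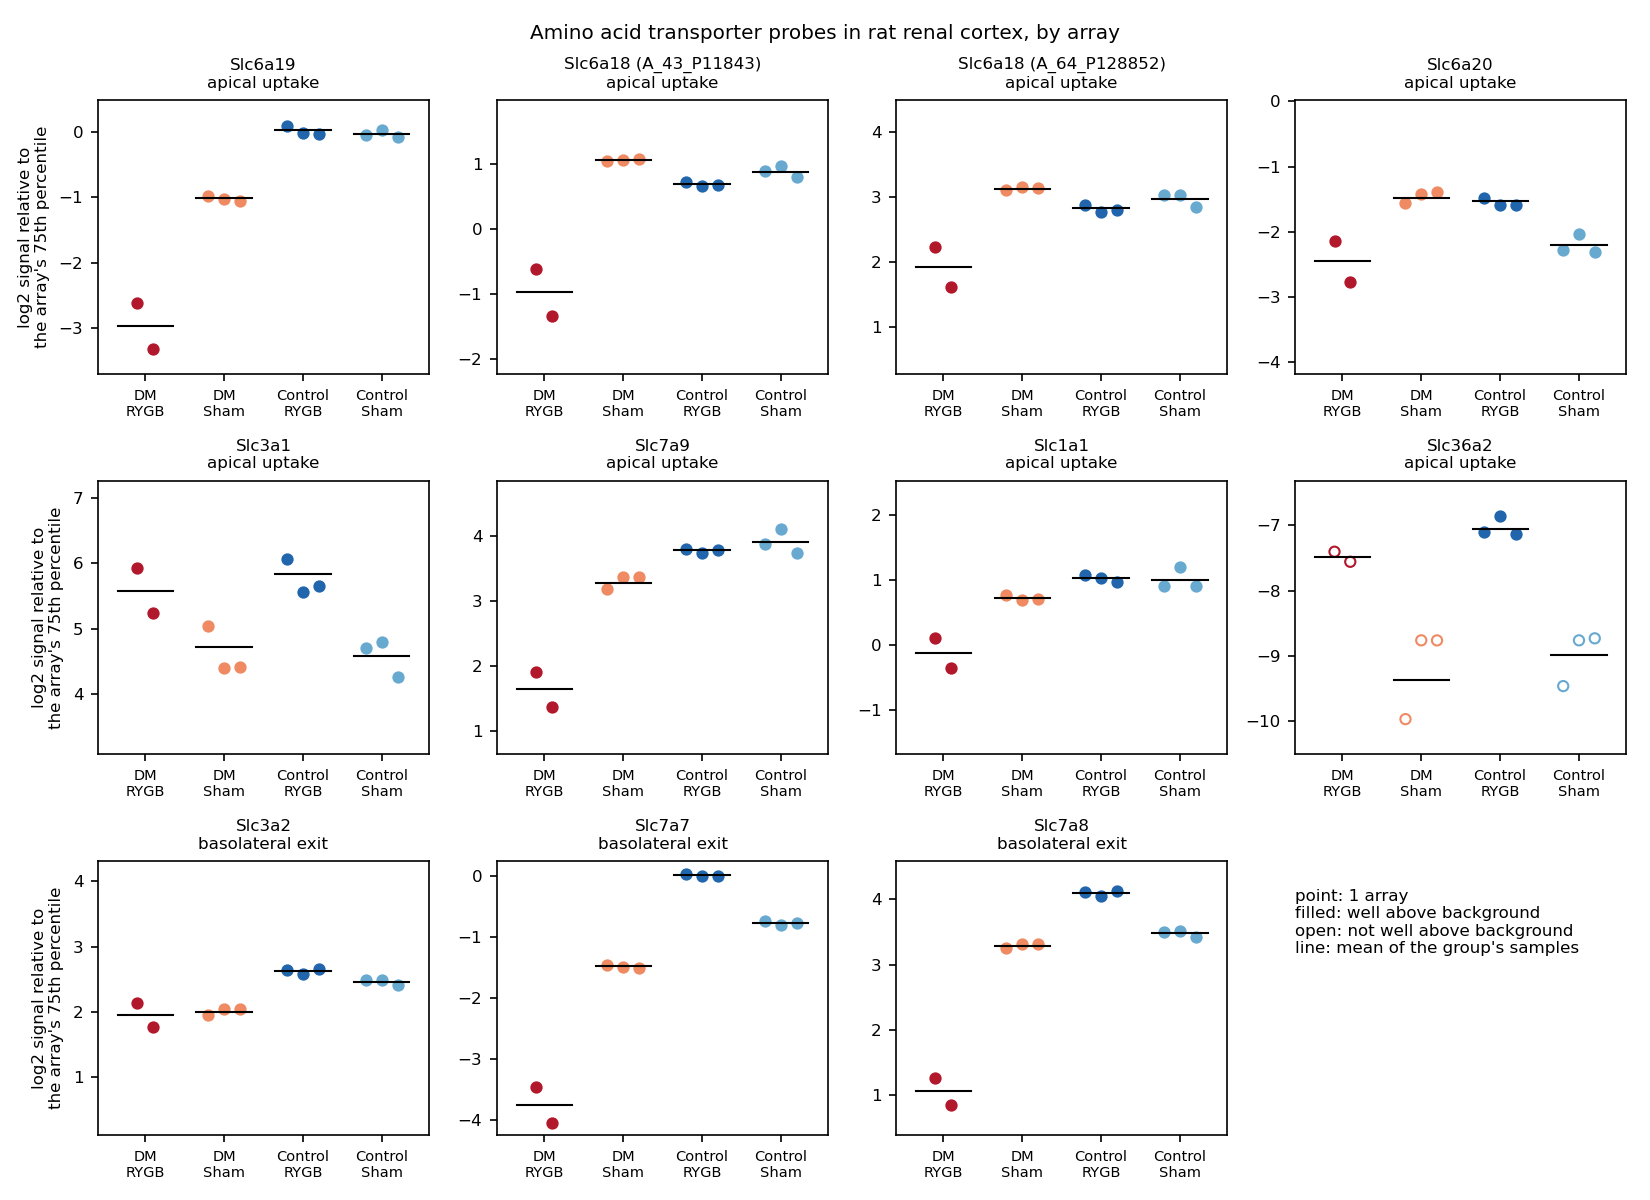
Log2 processed signal relative to the array's 75th percentile (vertical axis, own range per panel) of each of the 11 probes on each of the 11 arrays, by group; points are arrays, open where not well above background, and lines are means over the samples of a group. DM+RYGB arrays are lowest for Slc6a19, Slc6a18, Slc7a9, Slc1a1, Slc7a7 and Slc7a8, whereas for Slc3a1 the arrays of both bypass groups lie above those of both sham groups.

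The effect of bypass in diabetic rats was read from DM+RYGB against DM+Sham. Of the 10 transporter genes 7 were lower in DM+RYGB, 5 of the 7 apical and 2 of the 3 basolateral ones, and none was higher, where 14.8% of all named genes were lower, 7.96% higher and 22.8% called in either direction. A gene counts as called when limma's adjusted p is under 0.05 in the same direction with 75th percentile, median and quantile scaling of the arrays. The median probe of the array moved by 0.55 in this comparison with the 75th percentile and by -0.05 and -0.07 with the other 2 scalings.

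Both basolateral light chains fell. Slc7a7 fell by 2.27 on the log2 scale (SE 0.19, adjusted p = 0.000544), and Slc7a8 fell by 2.23 (SE 0.15, adjusted p = 0.00034). These are levels 4.84 and 4.68 times lower in DM+RYGB than in DM+Sham. Among the apical genes, Slc6a19 fell by 1.96 (SE 0.22, adjusted p = 0.00117). Slc6a18 fell by 2.03 with 1 probe and 1.21 with the other (adjusted p = 0.00108 and 0.00394), and Slc7a9 fell by 1.63 (SE 0.21, adjusted p = 0.00171). Slc6a20 and Slc1a1 fell less, by 0.97 and 0.85 (adjusted p = 0.0109 and 0.00959). For these 7 genes the DM+RYGB and DM+Sham arrays did not overlap.

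The 3 genes that were not called include both heavy chains. Slc3a1 had a log2 change of 0.86 (95% confidence interval 0.05 to 1.66, adjusted p = 0.0691) with the 75th percentile, 0.25 with median and -0.02 with quantile scaling, so its direction depends on the scaling. Slc3a2 had a change of -0.05 (95% confidence interval -0.39 to 0.28, adjusted p = 0.762) with the 75th percentile. It passed as lower with median scaling (-0.66, adjusted p = 0.0145) but not with quantile scaling (-0.16, adjusted p = 0.393). Slc36a2 was below background in both groups. Set against its heavy chain, the change of Slc7a9 was 2.48 lower than that of Slc3a1, and the changes of Slc7a7 and Slc7a8 were 2.22 and 2.17 lower than that of Slc3a2. The difference between light and heavy chain did not overlap between the DM+RYGB and DM+Sham samples for any of the 3 pairs, and was not tested beyond that.

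The 2 DM+RYGB arrays were 0.42 to 0.71 apart for the 8 probes of the 7 genes, with DM+RYGB 2, the array with muscle transcripts, the lower one each time. Without DM+RYGB 2, all 7 genes stayed called, with falls of 1.98 for Slc7a7, 2.02 for Slc7a8, 1.61 for Slc6a19, 1.36 for Slc7a9, 0.65 for Slc6a20 and 0.62 for Slc1a1. Only scan day 4 held both groups, with 1 array each, and there the differences were -1.95 for Slc7a7, -2.05 for Slc7a8, -1.56 for Slc6a19, -1.44 for Slc7a9, -0.74 for Slc6a20 and -0.59 for Slc1a1. With scan day as a block 5 of the 7 stayed called, without Slc6a20 and Slc1a1, with normexp background correction 4, without Slc6a19, Slc6a20 and Slc7a7, and without DM+Sham 2 and 3 the call of Slc6a20 was lost. Every scan-day fit counted DM+Sham 2 and DM+Sham 3 as separate samples, as they were scanned on different days. They lay within the noise of repeated spots, so the spread in that fit may be too small. In whole cortex, fewer cells of a type and less RNA per cell cannot be told apart.

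In control rats the same operation, Control+RYGB against Control+Sham, gave no call by limma among the 10 genes, where 7.14% of named genes were lower, 5.63% higher and 12.8% called in either direction. At an unadjusted p under 0.05, 5 of the 10 passed with the 75th percentile, Slc36a2 among them. The same 5 passed at an adjusted p under 0.05 with this scaling alone, where 27.6% of named genes did. Slc36a2 entered the test only through the group where it was high. With the 75th percentile alone, changes of 0.79 for Slc7a7 (SE 0.17, adjusted p = 0.0209), 0.62 for Slc7a8 (SE 0.14, adjusted p = 0.0229), 1.26 for Slc3a1 (SE 0.31, adjusted p = 0.0293) and 0.67 for Slc6a20 (SE 0.20, adjusted p = 0.0476) passed. With median scaling their adjusted p was 0.0743, 0.169, 0.0539 and 0.233. The median probe moved by 0.29 with the 75th percentile. With the 75th percentile, Slc6a19, Slc6a18, Slc7a9, Slc1a1 and Slc3a2 had changes between -0.19 and 0.17. Slc7a9 passed as lower with quantile scaling (-0.70, adjusted p = 0.0475) and in the deposited table (-0.83, adjusted p = 0.0348), but not with the 75th percentile (-0.13) or median scaling (-0.44). The 95% confidence interval for Slc6a19 ran from -0.41 to 0.53. No scan day held both groups.

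**Figure D2:**
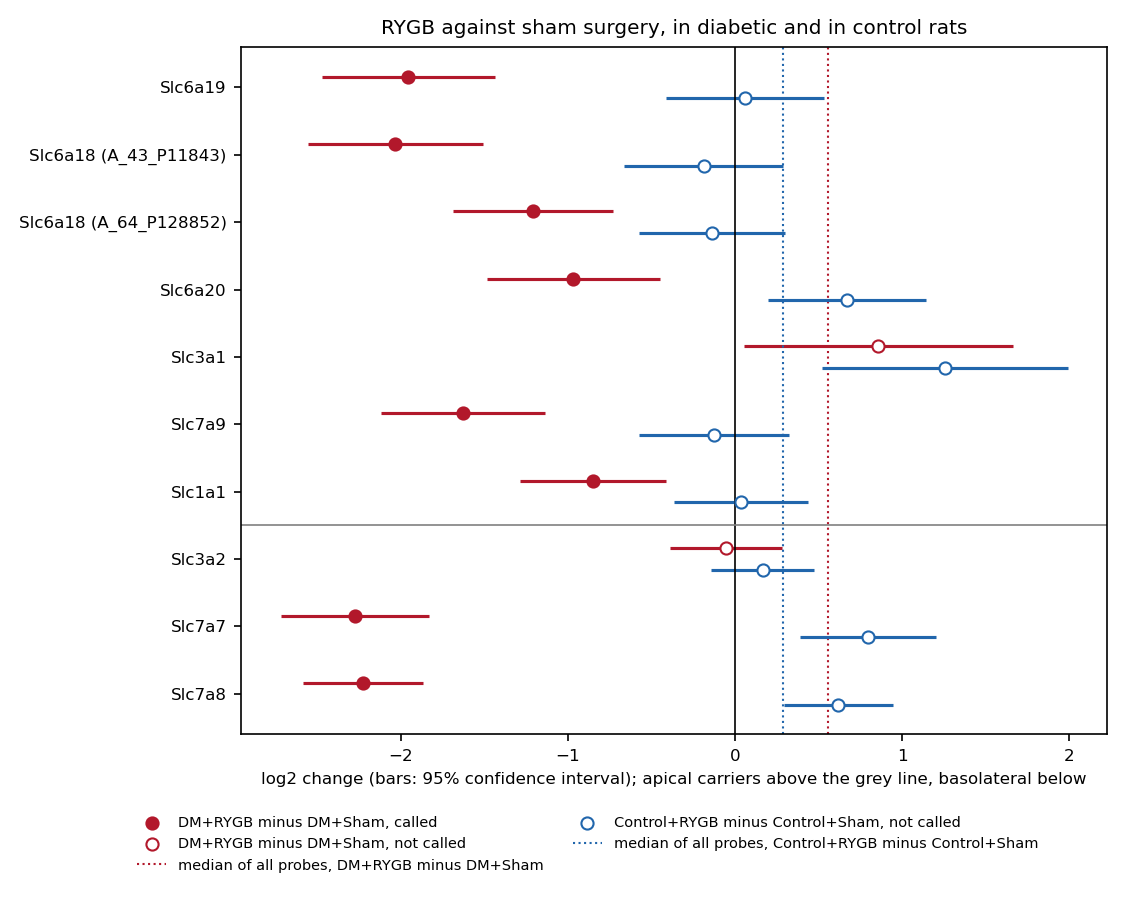
Log2 change (horizontal axis) of each probe after RYGB against sham surgery, in diabetic rats (red) and in control rats (blue), with 95% confidence intervals; filled points were called under 3 scalings, and dotted lines are the median change of all probes. Slc36a2 is left out as not measured above background. In diabetic rats 7 genes lie below 0 with their whole interval, and none of these does in control rats.

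The difference between the 2 bypass effects was tested as the interaction, DM+RYGB minus DM+Sham less Control+RYGB minus Control+Sham. The same 7 genes were called lower in it, 5 apical and 2 basolateral, where 11% of named genes were lower, 7.26% higher and 18.3% called in either direction. The interaction was -3.07 for Slc7a7 (SE 0.25, adjusted p = 0.000888), -2.84 for Slc7a8 (SE 0.20, adjusted p = 0.000597), -2.02 for Slc6a19 (SE 0.29, adjusted p = 0.00539) and -1.64 for Slc6a20 (SE 0.29, adjusted p = 0.0106). Slc7a7, Slc7a8 and Slc6a20 had fitted changes of opposite sign in the 2 kinds of rat, -2.27 and 0.79, -2.23 and 0.62, and -0.97 and 0.67. The interaction of Slc3a1 was -0.40 (95% confidence interval -1.49 to 0.69) and that of Slc3a2 was -0.22 (95% confidence interval -0.67 to 0.24), and neither was called. Slc7a9 (-1.50) kept its call in 8 of 13 fits that left out arrays, losing it without Control+RYGB 1, Control+RYGB 2 and 3, Control+Sham 1, Control+Sham 2 or DM+Sham 2 and 3, with values from -1.23 to -1.77. Slc1a1 (-0.89) kept it in 5 of 13, losing it also without Control+Sham 3, DM+Sham 1 or DM+RYGB 2, with values from -0.65 to -1.12. With scan day as a block only Slc7a7 stayed called, and with normexp Slc6a19, Slc6a20 and Slc7a7 were not called.

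Diabetes without bypass was read from DM+Sham against Control+Sham. Of the 10 genes 2 were lower in DM+Sham, 1 apical and 1 basolateral, and none was higher, where 8.17% of named genes were lower, 7.29% higher and 15.5% called in either direction. The median probe moved by 0.03. Slc6a19 fell by 0.99 (SE 0.20, adjusted p = 0.0189), and Slc7a7 fell by 0.71 (SE 0.17, adjusted p = 0.0341). Slc6a20 with 0.72 (adjusted p = 0.0515), Slc3a2 with -0.46 (adjusted p = 0.0522) and Slc7a9 with -0.63 (adjusted p = 0.0645) did not pass, although their DM+Sham and Control+Sham arrays did not overlap. Slc6a18 (0.18 and 0.16), Slc3a1 (0.14), Slc1a1 (-0.27) and Slc7a8 (-0.20) were nearer to 0. On scan days 2 and 3, each with 1 array of both groups, Slc6a19 differed by -1.02 and -0.96 and Slc7a7 by -0.66 and -0.72. Both calls were lost without Control+Sham 1, 2 or 3, DM+Sham 1, DM+Sham 2 and 3, Control+RYGB 1 or Control+RYGB 2 and 3, with normexp and with scan day as a block, and over 13 fits that left out arrays the changes ran from -1.02 to -0.96 for Slc6a19 and from -0.73 to -0.68 for Slc7a7. Without either DM+RYGB array Slc6a20 was also called higher and Slc3a2 and Slc7a9 lower.

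DM+RYGB against Control+Sham gives the state of the transporters after diabetes and bypass together. In it 7 of the 10 genes were lower, 4 of 7 apical and all 3 basolateral, and none was higher, where 16.5% of named genes were lower, 9.78% higher and 26.3% called in either direction. Slc7a7 fell by 2.98 (SE 0.17, adjusted p = 0.000119) and Slc6a19 by 2.95 (SE 0.20, adjusted p = 0.000199), to levels 7.90 and 7.70 times lower than in Control+Sham. Slc7a8 fell by 2.43, Slc7a9 by 2.26, Slc1a1 by 1.12, and Slc6a18 by 1.86 and 1.05 with its 2 probes. Slc3a2 was called here, with a fall of 0.52 (SE 0.13, adjusted p = 0.0129). Slc6a20 was not called, with -0.25 with the 75th percentile (95% confidence interval -0.72 to 0.22), although it passed as lower with median (-0.93, adjusted p = 0.00961) and quantile scaling (-0.73, adjusted p = 0.0287). Slc3a1 had a change of 0.99 with the 75th percentile, 0.32 with median and -0.11 with quantile scaling. No scan day held both groups, and with scan day as a block no gene of the 10 was called. This comparison shares its arrays with those above.

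**Figure D3:**
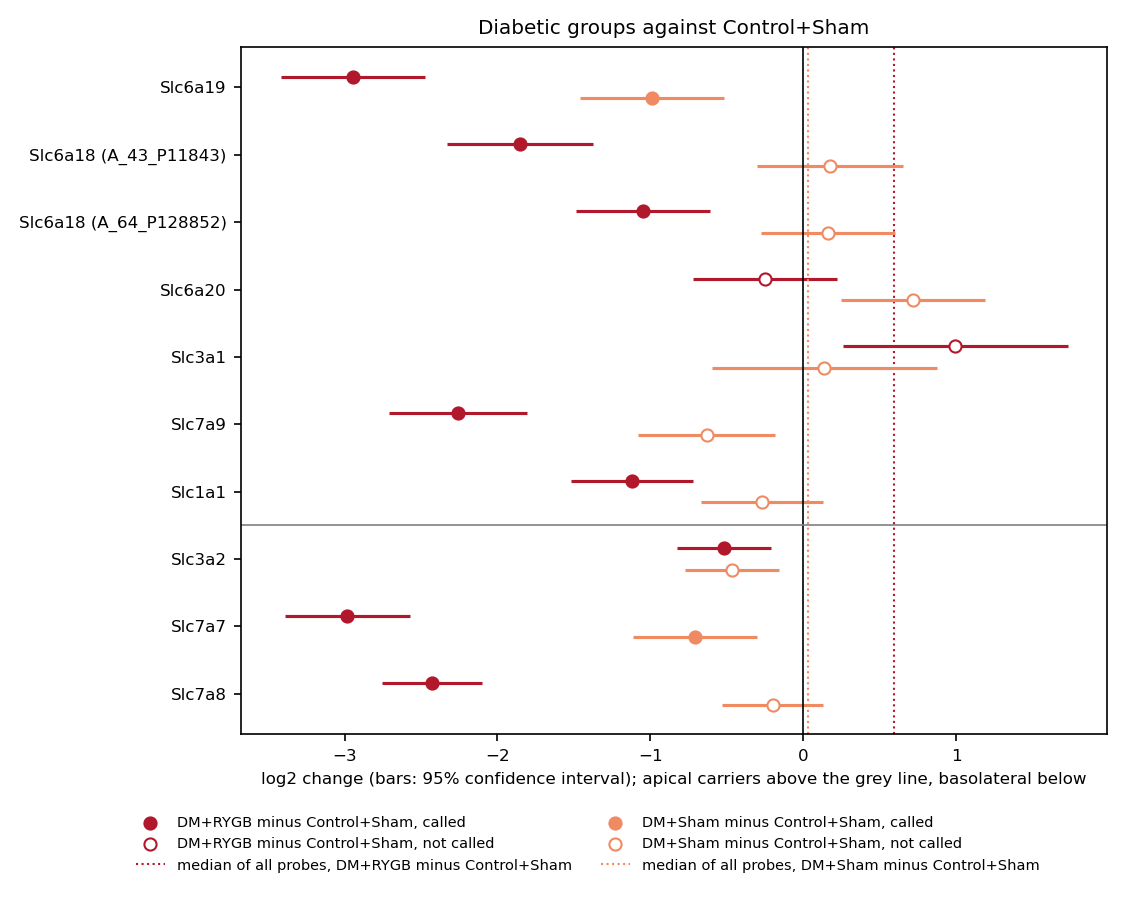
Log2 change (horizontal axis) of each probe in DM+RYGB (red) and in DM+Sham (orange), both against Control+Sham, with 95% confidence intervals; filled points were called under 3 scalings, and dotted lines are the median change of all probes. Slc6a19 and Slc7a7 are called in both, and Slc3a1 is the only gene drawn to the right of 0 in DM+RYGB.

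Apical and basolateral genes were thus called lower at 5 of 7 and 2 of 3 after bypass in diabetic rats, against 14.8% of named genes. With diabetes alone the counts were 1 of 7 and 1 of 3, against 8.17% of named genes. After bypass in control rats they were 0 of 7 and 0 of 3, against 7.14%. The median change of the apical list after bypass in diabetic rats was -0.97, and that of the basolateral list was -2.23, against 0.55 for all probes. With so few genes and 1 of the basolateral ones near 0, the difference between the 2 sides of the cell was not tested.

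Over the 9 samples, the levels of Slc6a19, Slc7a9, Slc1a1, Slc7a7 and Slc7a8 ran closely together, with Pearson correlations between 0.96 and 0.99. These samples share their groups, and the low DM+RYGB samples weigh most in such values. Slc3a1 had correlations between -0.39 and 0.18 with all other genes except Slc36a2, with which it reached 0.73, the latter being mostly below background. Slc6a20 was intermediate, at 0.49 with Slc6a19 and 0.70 with Slc6a18.

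Among 14362 other named genes, those most like Slc6a19 by this measure were Igsf11 (0.9986), C1qtnf3 (0.998), Cdr2 (0.9971), Ropn1 (0.9959) and Abcg2 (0.9949). Those most like Slc7a7 were Ralgdsl1 (0.9972), Havcr1 (0.9961), Folh1 (0.9961), Psat1 (0.996) and Fam151a (0.9953). Abcg2 is an apical efflux pump of the proximal tubule, Havcr1 is the kidney injury molecule of this segment, and Psat1 is an enzyme of serine synthesis.

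Transcripts of proteins that work beside the carriers were mostly lower after bypass in diabetic rats. Of 14 partner proteins, brush border peptidases and peptide carriers, 10 were lower in DM+RYGB than in DM+Sham and none was higher, where 14.8% of named genes were lower and 7.96% higher. Cltrn, collectrin, which brings Slc6a19 and Slc6a18 to the brush border, lay at 2.23 and 1.74 in DM+RYGB and at 4.28, 4.10 and 4.12 in DM+Sham, a change of -2.21 (SE 0.21, adjusted p = 0.000717). The peptide carriers Slc15a1 and Slc15a2 changed by -3.56 and -1.87, and the brush border peptidase Dpp4 by -2.09. Further probes of Slc15a1 (-2.06 and -1.84) and Dpp4 (-1.20) changed less. Of the other carriers of this cell, for sugars, phosphate, bicarbonate and organic ions, 8 of 12 apical and 7 of 10 basolateral ones were lower and none was higher, against the same 14.8% and 7.96% of named genes. In control rats none of the 14 was called, and Cltrn had a change of 1.09 that did not pass under all 3 scalings. With diabetes alone 1 was higher, Slc15a2 by 0.61, and 1 was lower, Enpep, an aminopeptidase, by 0.43. The count of 10 was 9 without DM+RYGB 2 and 12 without DM+RYGB 1.

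Amino acid carriers outside this set did not move as one. Of 27 measured ones, most of which serve other cell types or the supply of the cell itself, 6 were lower and none was higher in DM+RYGB than in DM+Sham, where 14.8% of named genes were lower and 7.96% higher, among the 6 Slc38a4, a sodium-coupled carrier of neutral amino acids, by 1.61 and Slc36a4 by 0.75. Their median change was 0.16, below the 0.55 of all probes. With diabetes alone 4 rose and 3 fell, where 7.29% of named genes were higher and 8.17% lower. Slc43a3, a family member known for nucleobases, rose by 1.32, Slc6a6, the taurine carrier, by 0.99 and Slc1a5, a glutamine carrier, by 0.94, and Slc1a4, a carrier of serine and alanine, fell by 1.32. After bypass in control rats Slc6a6 rose by 1.29 and Slc43a2, a facilitated carrier of branched-chain amino acids, by 1.34, whereas 4 others fell, where 5.63% of named genes were higher and 7.14% lower.

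Of 4 measured transcription factors that keep up proximal tubule genes, 3 were lower and none was higher in DM+RYGB than in DM+Sham. Among all named genes 14.8% were lower and 7.96% higher. The changes of the 4 ran from -1.23 to 0.92, and Hnf4a and Maf were among the lower ones. Hnf4a lay at -1.76 and -2.23 in DM+RYGB and at -1.22, -1.21 and -1.24 in DM+Sham, a change of -0.77 (adjusted p = 0.00826). Maf changed by -1.23 (adjusted p = 0.00401). Neither was called with diabetes alone or after bypass in control rats.

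**Figure D4:**
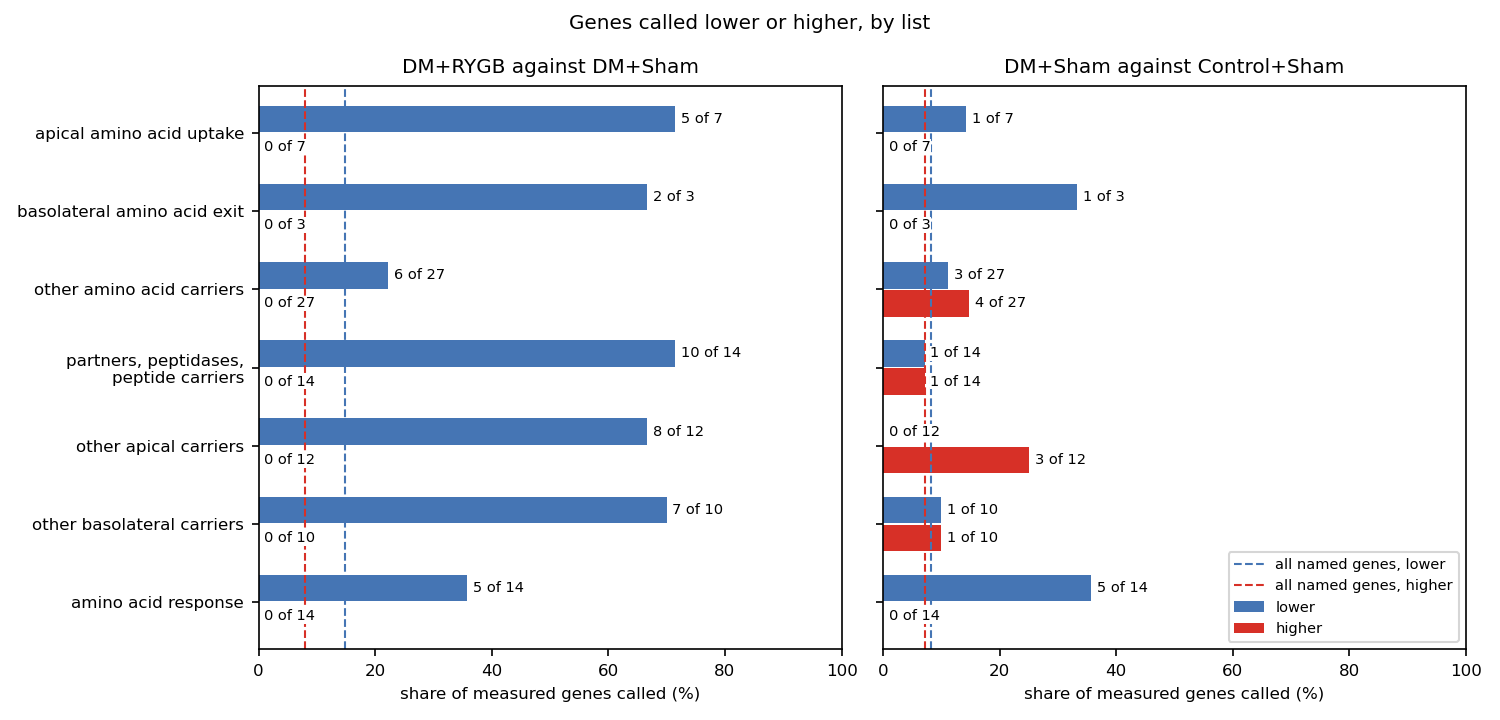
Share of the measured genes of each list (horizontal axis, percent) called lower (blue) or higher (red), in DM+RYGB against DM+Sham (left) and DM+Sham against Control+Sham (right); dashed lines are the shares of all named genes and labels give the counts. In the left panel every list drawn lies above the line of all named genes for lower calls. Besides the transporters and partner proteins, 8 of 12 other apical and 7 of 10 other basolateral carriers were lower. The other amino acid carriers are the list nearest to the line.

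Markers of the cortex bear on all of these values. All 11 proximal tubule markers, Lrp2 and Slc34a1 among them, were well above background on every array. Their summed signal was 163 to 290 times the 75th percentile in DM+RYGB, 189 to 256 times in DM+Sham, 332 to 449 times in Control+RYGB and 149 to 229 times in Control+Sham. Of these 11, 6 were lower and none was higher in DM+RYGB than in DM+Sham, where 14.8% of named genes were lower. Their median change was -0.22, and it changed sign to 0.17 without DM+RYGB 2, with 5 lower, and was -0.60 without DM+RYGB 1, with 6 lower. Slc34a1, Slc5a2, Slc5a12, Slc22a6 and Slc22a8 stand both among these markers and in the lists of other carriers, so the counts of these lists are not separate. The 3 measured markers of the distal convoluted tubule summed to 13.3 to 21.2 in DM+RYGB, 7.29 to 8.31 in DM+Sham, 6.60 to 6.80 in Control+RYGB and 4.76 to 5.73 in Control+Sham. The 5 podocyte markers summed to 23.4 to 32.9 in DM+RYGB and to at most 12.0 in any other group. The 3 measured inner medulla markers summed to 2.26 to 2.65 in DM+RYGB, 4.64 to 5.19 in DM+Sham, 1.41 to 1.54 in Control+RYGB and 8.84 to 11.2 in Control+Sham. The 6 urothelium markers summed to 0.4235 to 0.548 in DM+RYGB, 0.221 to 0.229 in DM+Sham, 0.191 to 0.242 in Control+RYGB and 1.93 to 2.11 in Control+Sham. The 6 liver markers summed to 1.23 to 2.09 in DM+RYGB, 1.55 to 1.58 in DM+Sham, 9.095 to 11.2 in Control+RYGB and 1.655 to 2.17 in Control+Sham. No marker list was at 0 in any group, and the part of these shifts in the transporter results was not tested.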

How the data were processed

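Per the file headers, the authors made the intensity of each spot with Feature Extraction 11.0.1.1 of Agilent, which subtracted background and left arrays unscaled. A deposited table of log2 values, with a median of 7.07 in every column, was used as an alternative, and how it was made is not given in the sources used here. The 1377 control spots and outlier spots were left out, spots of 1 probe were averaged, and log2 intensity minus the array's 75th percentile was analysed. The test took in 28497 of 30367 probes, those well above background on 2 or more arrays. DM+Sham 2 and 3 (spread of differences 0.0207, noise of repeated spots 0.0719) and Control+RYGB 2 and 3 (0.0531, noise 0.0665) were averaged, so that 9 samples and 5 residual degrees of freedom remained. One model held all 4 groups (limma 3.58.1, R 4.3.3, Benjamini-Hochberg over all probes). A gene was called by any probe with an adjusted p under 0.05 in 1 direction under 3 scalings, and further lists named up to 4 genes per comparison with the smallest p. The members and lists were chosen with earlier results of these data known. The fits were tested on simulated data. The number of arrays limits the precision. Replicate numbers were not used to pair the samples in the main fit, and whether they do so could not be decided.

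Alternatives were each scaling alone, normexp on median spot signals with an offset of 50, the deposited table, other probe filters, 1 probe per gene, 11 separate arrays, the replicate number or scan day as a block, only the groups compared and leaving out each array. The array design is annotated on an older genome build than the reference table, so no gene coordinates beyond the GRCr8 promoters are given. Some genes of one further list are not reported here.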

Additional observations from a re-analysis of the deposited data

Results flagged for a closer look

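For 8 probes of 7 genes the effect of bypass differed between diabetic and control rats by limma's test of the interaction, adjusted over all probes. The interaction, the bypass effect in diabetic rats minus that in control rats on the log2 scale, was -3.07 for Slc7a7, -2.84 for Slc7a8, -2.02 for Slc6a19, -1.84 and -1.07 for the 2 probes of Slc6a18, -1.64 for Slc6a20, -1.50 for Slc7a9 and -0.89 for Slc1a1.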

How the results depend on the processing

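No result changed sign and call under any alternative. Of the 10 genes, the 7 called lower after bypass in diabetic rats became 4 with normexp background correction, 5 with scan day as a block or only the groups compared, and 6 to 7 when single arrays or an averaged pair were left out. For the interaction the 7 became 4 with normexp, 1 with scan day as a block and 5 to 7 without single arrays. The 7 of DM+RYGB against Control+Sham became 0 with scan day as a block, a fit in which no day holds both groups, and 7 to 8 without single arrays. The 2 called with diabetes alone became 0 with normexp or scan day as a block, 4 with the deposited table or with probes above background on every array, 5 with 11 separate arrays and 0 to 5 without single arrays. After bypass in control rats the count of 0 became 5, 1 and 2 with the 75th percentile, median and quantile scaling alone, 4 with the deposited table, 1 with probes above background on every array, 2 with 11 separate arrays, 3 with only the groups compared and 0 to 2 without single arrays. The share of named genes called fell as well with normexp and the scan-day block, to 0.571% and 0.71% for diabetes alone. For diabetes alone it was 20.2% with the deposited table, 19.7% with probes above background on every array and 31.2% with 11 separate arrays. With normexp it was 12.5% for bypass in diabetic rats and 3.7% for the interaction. With the block it was 4.73% for bypass in diabetic rats, 0.829% for the interaction and 0.0% for DM+RYGB against Control+Sham. With only the groups compared it was 6.29% for bypass in diabetic rats. After bypass in control rats it was 27.6%, 27.3% and 21.4% with the 75th percentile, median and quantile scaling alone. There it was 23.0% with the deposited table and 15.0% with probes above background on every array. It was 25.3% there with 11 separate arrays and 18.6% with only the groups compared. In control rats the counts of 1 and 2 of 10 lay below these shares, and those of 3, 4 and 5 above. Same-numbered arrays deviated together in 5 of 15 pairs (correlations -0.379 to 0.45), so the numbers do not pair the samples; with the replicate block, on 11 separate arrays, 5 genes were called with diabetes alone and 3 after bypass in control rats. The causes were not tested. The fit on only the groups compared has no interaction, and the filter on every array leaves out Slc36a2. With 2 DM+RYGB samples, lone samples in fits without an array are assumed to vary like the other groups. Among the 10 genes only Slc36a2 was not well above background on every array. Slc6a19, Slc6a20 and Slc7a7, which lost their calls with normexp, had the lowest DM+RYGB signals after Slc36a2. These were 263 and 161, 367 and 236, and 147 and 97 units. Over all settings the bypass change in diabetic rats came as near to 0 as -1.36 for Slc7a7 and -1.40 for Slc6a19.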

Other observations

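Genes of serine synthesis, which the amino acid response list holds because the transcription factor Atf4 drives them when amino acids run short, were lowest in DM+RYGB. In DM+RYGB against Control+Sham, 8 of the 14 genes of this list were lower and none was higher, where 16.5% of named genes were lower. Psph changed by -2.67 (adjusted p = 0.000178), Phgdh by -2.33 (adjusted p = 0.000302) and Psat1 by -2.12 (adjusted p = 0.000381). Psat1 lay at 1.28 and 0.70 in DM+RYGB, 2.60, 2.46 and 2.47 in DM+Sham, 3.83, 3.73 and 3.73 in Control+RYGB and 3.16, 3.18 and 2.98 in Control+Sham. Not every gene of the list fell. Atf4 itself lay at 2.81 and 2.70 in DM+RYGB and at 2.78, 2.74 and 2.42 in Control+Sham. Ddit3 lay at 2.50 and 2.35 in DM+RYGB, above its 1.63, 1.70 and 1.67 in Control+Sham. With diabetes alone 5 of the 14 were lower, where 8.17% of named genes were lower, Psph by 1.73 and Asns, asparagine synthetase, by 0.88 among them.

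In the same comparison, DM+RYGB against Control+Sham, 3 of the 27 other amino acid carriers were higher and 6 lower, where 9.78% of named genes were higher and 16.5% lower. The share of carriers that were higher was near that of all named genes. The 3 higher ones were Slc43a3 by 1.83, Slc43a1, a facilitated carrier of large neutral amino acids, by 1.83 and Slc7a5, a light chain that also pairs with Slc3a2, by 1.68. Slc7a5 lay at -4.75 and -5.00 in DM+RYGB and at -6.60, -6.69 and -6.36 in Control+Sham.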
